A study of Mus musculus with 6 samples.

Results

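Chemokine ligand transcripts were examined in regulatory T (Treg) cells of mice, which express Foxp3 and hold immune responses in check, without and with Crlf2. Crlf2 encodes the receptor subunit that binds the cytokine TSLP, and the series title asks about TSLP acting on Treg cells. The genes were 10 ligands given by name: Cxcl10, Cxcl9, Cxcl16, Cxcl2, Ccl3, Ccl4, Ccl5, Ccl1, Ccl20 and Xcl1. All 10 were among the 23992 gene symbols of the count table, and 7 of them passed the filter on low counts that left 12720 genes for testing. Where a symbol had several transcript rows, the row with the highest summed count was used, which applied to Ccl20 with its 2 rows.

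There were 3 libraries labelled KO and 3 labelled WT. The labels give Foxp3YFP-Cre/Y mice that are Crlf2fl/fl for KO, and Foxp3YFP-Cre/Y mice for WT, all CD45.2 and male. Both groups thus carry the same Cre allele, which is expressed from Foxp3 together with a yellow fluorescent protein. By the labels, live cells with CD4 and YFP were sorted from a pool of spleen and lymph nodes. The sources used here give neither the age of the animals nor whether each library is a separate animal, so every p-value speaks of the spread among these libraries alone. Title and genotype tag set the groups here, whereas a strain entry within each description gives the opposite strain. The name of the count table mentions lung, which the labels do not. Markers of lung epithelium took 0.250% to 7.89% of counts in these libraries. Which tissue the cells came from is thus unsettled here and was not tested.

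Library totals ran from 9649588 to 18352405 counts in KO and from 1439740 to 12180562 counts in WT, the smallest being WT replicate 2. Crlf2 reads numbered 93, 84 and 68 in KO libraries, against 694, 213 and 1111 in WT libraries, so their direction goes with the titles. WT replicate 3 stood apart in its markers. The 7 Treg markers listed took 0.369% to 0.378% of all counts in KO, against 0.312%, 0.342% and 0.156% in WT replicates 1, 2 and 3. Foxp3 was found in every library, with 386, 489 and 426 CPM in KO libraries, against 474, 437 and 200.1 CPM in WT libraries 1, 2 and 3. CPM are reads scaled to library size with TMM factors (trimmed mean of M values). Results that rest on WT replicate 3 are given with and without it.

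Chemokines are small secreted proteins that guide leukocytes along gradients by binding receptors coupled to G proteins. Their genes fall into families by the spacing of conserved cysteines near the start of the protein (CXC, CC, XC), and many are induced by interferons, by NF-kB or by antigen receptor signalling. Activated T cells, natural killer cells and macrophages make several of them, Ccl3, Ccl4 and Ccl5 among them.

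The promoter of Cxcl10, the ligand gene that differed between the groups, is shown beside that of Cxcl9, its neighbour on chromosome 5 and a ligand of the same receptor, and that of Ccl3, which was not called. Each line holds the 250 bases before the transcript start from RefSeq (build GRCm38.p6), 5′ to 3′ on the gene's own strand, which is the minus strand for all 3 genes. Capitals mark matches to the interferon-stimulated response element (ISRE, searched as GAAA, any 2 bases and GAAA) and to the NF-kB consensus.
Cxcl10 (chr5:92348890-92349139): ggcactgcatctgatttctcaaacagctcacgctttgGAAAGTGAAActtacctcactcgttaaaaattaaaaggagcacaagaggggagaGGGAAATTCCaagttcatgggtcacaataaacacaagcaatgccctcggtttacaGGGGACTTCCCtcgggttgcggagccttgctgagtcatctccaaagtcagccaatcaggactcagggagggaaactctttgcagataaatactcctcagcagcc
Cxcl9 (chr5:92328080-92328329): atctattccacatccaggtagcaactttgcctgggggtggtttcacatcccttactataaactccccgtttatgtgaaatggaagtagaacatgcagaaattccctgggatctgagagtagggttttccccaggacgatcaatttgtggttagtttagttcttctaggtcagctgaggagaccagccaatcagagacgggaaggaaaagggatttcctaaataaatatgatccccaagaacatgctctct
Ccl3 (chr11:83649379-83649628): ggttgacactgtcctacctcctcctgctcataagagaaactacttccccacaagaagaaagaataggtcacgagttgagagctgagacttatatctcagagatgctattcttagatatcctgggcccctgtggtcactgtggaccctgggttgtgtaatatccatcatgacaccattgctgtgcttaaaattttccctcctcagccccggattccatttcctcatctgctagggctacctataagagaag
RefSeq promoters were matched for 7 of the 10 ligands: Cxcl10, Cxcl9, Cxcl2, Ccl3, Ccl1, Ccl20 and Xcl1. Cxcl10 held 1 ISRE match, GAAAGTGAAA, 213 to 204 bases before its start, and none of the other 6 windows held one. Among 32851 promoter windows of the same length, searched on both strands, 2.98% held such a match. NF-kB matches stood in Cxcl10 at 159 to 150 bases before the start and, as a pair that overlap, at 104 to 95 and 103 to 94 bases. Cxcl2, Ccl1 and Ccl20 held NF-kB matches too, as did 7.25% of all windows. The gamma-activated site (GAS, searched as TTCNNNGAA), present in 7.02% of all windows, was matched in 0 of the 7. A match is a run of letters and not a measured binding site, and a window without one says only that these letters are not in it.

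Of the 10 ligands, Cxcl10 alone passed the test between KO and WT cells, and it fell in KO. Cxcl10 encodes a ligand of the receptor CXCR3 that draws activated T cells and natural killer cells, and interferons are its best known inducers. The gene spans chr5:92346638-92348889 on the minus strand. Its reads numbered 86, 130 and 121 in KO libraries, against 597, 186 and 552 in WT libraries. Its levels were 8.37, 10.4 and 6.32 CPM in KO libraries, against 79.8, 127 and 52.2 CPM in WT libraries. Every KO library lay below every WT library, and the lowest WT level was that of WT replicate 3. The mean was 8.37 ± 2.05 CPM for KO, against 86.4 ± 38.0 CPM for WT (SD, n = 3 libraries each). This gave a log2 fold change of KO over WT of -3.35 with an SE of 0.36 (edgeR quasi-likelihood test, Benjamini-Hochberg adjusted p = 0.00922), a fitted level 10.2 times as high in WT. Of the 7 ligands tested, 1 was called lower and 0 higher at an adjusted p under 0.05, whereas 1.74% of all tested genes were called, 0.983% lower and 0.755% higher in KO. Scaled to pan-T genes, the calls over all genes were 26 higher and 140 lower, in place of 96 and 125, and Cxcl10 had a log2 fold change of -3.53. In bulk RNA, fewer cells that express a gene and less RNA per cell cannot be told apart.

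Without WT replicate 3 Cxcl10 had a log2 fold change of -3.61 with an SE of 0.29 (edgeR adjusted p = 0.00172). The call was lost without KO replicate 1 (-3.35, edgeR adjusted p = 0.0861) and without KO replicate 3 (-3.17, edgeR adjusted p = 0.0712). Of the lung epithelial markers, 12 of 12 were in the table and none was at 0. They took 1.67%, 2.03% and 0.250% of counts in KO libraries, against 7.89%, 1.76% and 2.25% in WT libraries. Scgb1a1 had 146534, 217362 and 41517 reads in KO libraries, against 573926, 23323 and 241866 in WT libraries. This gene made up most of the list's share in every library. With that share as a covariate Cxcl10 had a log2 fold change of -3.23 (SE 0.44) and was not called (edgeR adjusted p = 0.0915), and edgeR then called 0 of the 12720 genes, with 1142 at an unadjusted p under 0.05. Art3, which spans Cxcl10 on the opposite strand, had 7, 0 and 0 reads in KO libraries, against 6, 0 and 13 in WT libraries. Those reads were few beside those of Cxcl10, although reads of the 2 genes cannot be separated without a known strand setting.

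**Figure D1:**
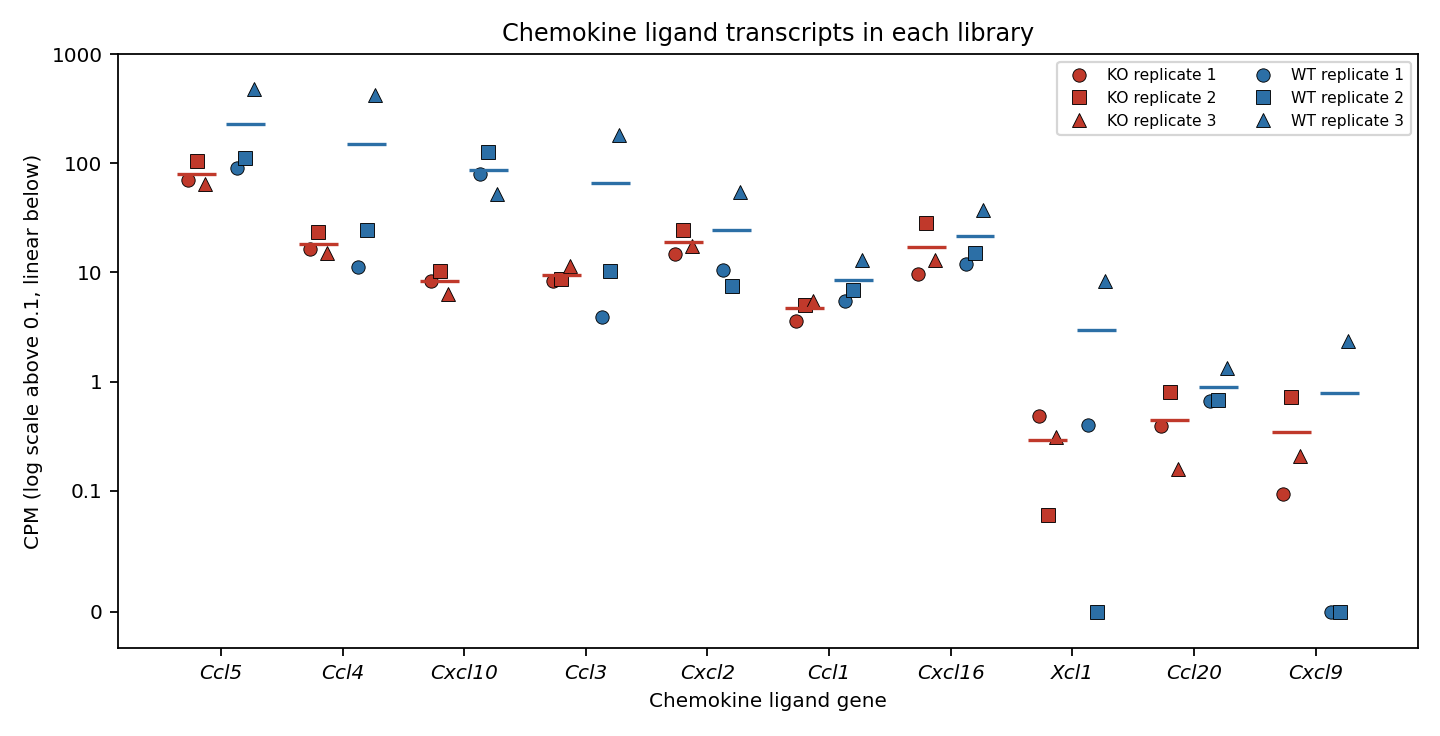
CPM of the 10 chemokine ligand genes in each library, ordered by mean level per transcript length, with KO (red) left of WT (blue), a symbol for each replicate and a horizontal line at each group mean. The axis is logarithmic above 0.1 CPM and linear below; Cxcl10 lies at 6.32 to 10.4 CPM in KO and at 52.2 to 127 CPM in WT, while for Ccl5, Ccl4, Ccl3 and Xcl1 the triangle of WT replicate 3 lies far above all other libraries.

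Cxcl9, the other CXCR3 ligand gene of the set (chr5:92321331-92328079, minus strand), had few reads. They numbered 1, 9 and 4 in KO libraries, against 0, 0 and 25 in WT libraries, so all WT reads came from WT replicate 3. A count of 0 allows up to 3 reads, or 0.401 CPM in WT replicate 1 and 2.05 CPM in WT replicate 2, for counting error only. Cxcl9 did not pass the filter and was not tested. In WT replicates 1 and 2, with Cxcl9 at 0, Cxcl10 had 597 and 186 reads. Cxcl11, the remaining CXCR3 ligand gene, named here after its values were seen, had 3, 1 and 2 reads in KO libraries, against 1, 0 and 1 in WT libraries.

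Ccl3 and Ccl4, which encode the inflammatory chemokines MIP-1alpha and MIP-1beta, had a single high library in WT. Ccl3 (chr11:83647843-83649378, minus strand) had 85, 109 and 219 reads in KO libraries, against 29, 15 and 1921 in WT libraries. That was 8.28, 8.72 and 11.4 CPM in KO libraries, against 3.88, 10.3 and 182 CPM in WT libraries. The KO libraries lay among or above WT replicates 1 and 2, and WT replicate 3 lay far above all others. Ccl4 (chr11:83648624-83664683, plus strand) had 168, 293 and 290 reads in KO libraries, against 83, 36 and 4424 in WT libraries. That was 16.4, 23.5 and 15.1 CPM in KO libraries, against 11.1, 24.6 and 419 CPM in WT libraries. The KO values of Ccl4 thus lay between those of WT replicates 1 and 2. WT replicate 3 held 97.8% of the WT reads of Ccl3 and 97.4% of those of Ccl4. Neither gene was called, with log2 fold changes of -2.83 (SE 1.43) for Ccl3 and -3.08 (SE 1.43) for Ccl4 and edgeR adjusted p = 0.425 and 0.380. Without WT replicate 3 both signs turned, to 0.56 (SE 0.51) for Ccl3 and 0.13 (SE 0.40) for Ccl4, with edgeR adjusted p = 0.607 and 0.899. The level of Ccl4 over that of Ccl3, per transcript length, was 2.37, 3.22 and 1.59 in KO libraries, against 3.43, 2.87 and 2.76 in WT libraries. By that ratio WT replicate 3 lay inside the range of the others. The RefSeq span of Ccl4 overlaps the GENCODE span of Ccl3 by 732 bases on the opposite strand. Without a known strand setting any reads there cannot be assigned. These are spans of whole genes, whereas the counted Ccl4 transcript is 660 bases long. Whether the counted transcripts overlap was not tested.

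Ccl5, which encodes RANTES, a chemokine made by memory and cytotoxic lymphocytes, ranked 1 of the 10 per transcript length in all 6 libraries. The gene lies in the same stretch of chromosome 11 (chr11:83525778-83530518, minus strand). Its reads numbered 718, 1305 and 1247 in KO libraries, against 682, 164 and 5106 in WT libraries, or 69.9, 104 and 65.1 CPM in KO libraries, against 91.2, 112 and 483 CPM in WT libraries. The groups overlapped, with KO replicate 2 above WT replicate 1. The log2 fold change of Ccl5 was -1.54 with an SE of 0.71 (edgeR adjusted p = 0.378), and -0.33 (SE 0.23, edgeR adjusted p = 0.483) without WT replicate 3. Xcl1 (chr1:164931644-164935522, minus strand) encodes lymphotactin, which binds XCR1 on cross-presenting dendritic cells. It had 5, 1 and 6 reads in KO libraries, against 3, 0 and 89 in WT libraries, and did not pass the filter. WT replicate 3 held 96.7% of its WT reads.

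**Figure D2:**
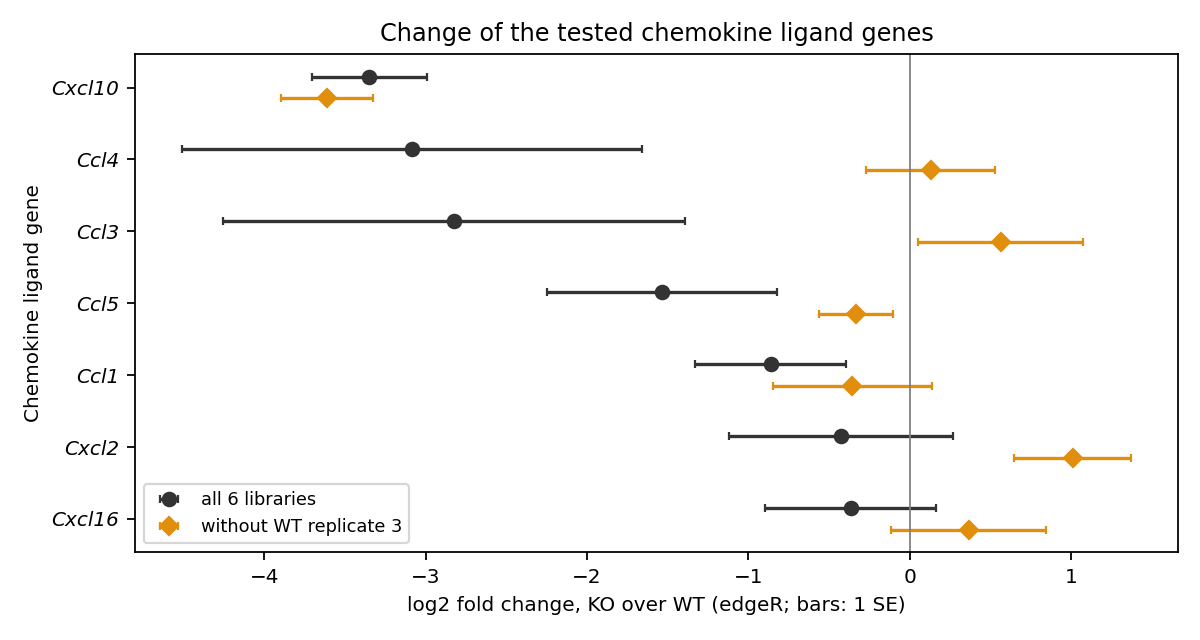
log2 fold change of KO over WT, with bars of 1 SE, for the 7 tested ligand genes with all 6 libraries (black circles) and without WT replicate 3 (orange diamonds). Cxcl10 lies at -3.35 and -3.61, whereas Ccl3, Ccl4, Cxcl2 and Cxcl16 lie below 0 with all libraries and above 0 without WT replicate 3.

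Markers of several other cell types were high in the same library. The natural killer and CD8 T cell list (7 of 7 genes in the table) took 0.00117% to 0.00281% of counts in KO, against 0.00192%, 0.00188% and 0.0166% in WT libraries. Eomes, a transcription factor of those cells, was at 0.0974, 0.0800 and 0.209 CPM in KO libraries, against 0, 0.684 and 12.7 CPM in WT libraries. Cd8a was at 0 in WT replicate 2 and at 9.84 CPM in WT replicate 3. The macrophage and monocyte list (13 of 14 genes in the table) took 0.323% to 0.347% in KO, against 0.0709%, 0.125% and 0.839% in WT libraries. Marco, a scavenger receptor of that list, had 1, 1 and 5 reads in KO libraries, against 0, 0 and 25 in WT libraries. Lyz2, of the same list, had 8382, 10215 and 16027 reads in KO libraries, against 1726, 452 and 39610 in WT libraries. Neutrophil markers (6 of 7) took 0.00467% to 0.00515% in KO, against 0.00477%, 0.00521% and 0.0371% in WT libraries. B cell markers (6 of 7) took 0.00170% to 0.00303% in KO, against 0.00225%, 0.00208% and 0.0323% in WT libraries. Erythroid genes (8 of 8) took 0.133% to 0.196% in KO, against 0.117%, 0.470% and 9.88% in WT libraries. Dendritic cell markers (8 of 8) took 0.0126% to 0.0172% in KO, against 0.0175%, 0.0222% and 0.0420% in WT libraries. In each of these lists WT replicate 3 was the highest library. The endothelium and fibroblast list was highest in WT replicate 2 (0.0126%, against 0.0107% in WT replicate 3). Lung epithelial markers were highest in WT replicate 1. In the dendritic list, Cd209a and Zbtb46 were lower in every KO library than in any WT library, and neither was called. The groups of Flt3, Xcr1, Clec9a, Siglech, Ccr7 and Batf3 overlapped. The 10 ligands summed to 0.0140%, 0.0223% and 0.0140% of counts in KO libraries, against 0.0202%, 0.0309% and 0.109% in WT libraries. The part of other cells in the ligand values was not tested. With the macrophage share as a covariate, edgeR also called Ccl3 (log2 fold change -2.24, SE 0.21), Ccl4 (-2.59, SE 0.20) and Ccl5 (-1.66, SE 0.20) lower, with adjusted p = 0.00124, 0.000511 and 0.00358. The calls of these 3 genes thus depended on that term, and the sign of Ccl3 and Ccl4 on WT replicate 3.

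**Figure D3:**
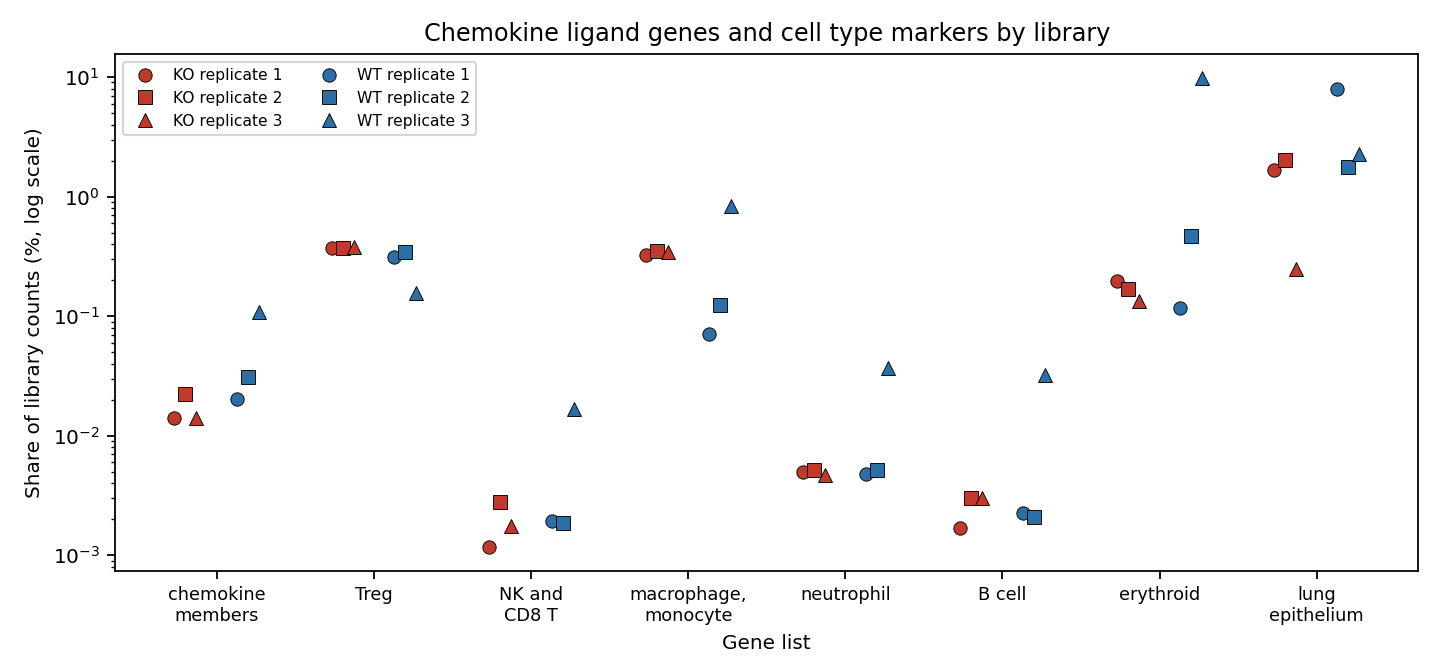
Share of each library's counts, in percent on a logarithmic axis, taken by the 10 ligand genes and by 7 marker lists, with KO (red) left of WT (blue) and a symbol for each replicate. WT replicate 3 is the highest library for the ligands (0.109%) and for the natural killer and CD8 T, macrophage, neutrophil, B cell and erythroid lists, and the lowest for the Treg list (0.156%).

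Cxcl2 and Cxcl16 did not separate KO from WT. Cxcl2 (chr5:90903899-90905938, plus strand) encodes a ligand of CXCR2 that recruits neutrophils. Its reads numbered 150, 306 and 335 in KO libraries, against 79, 11 and 577 in WT libraries, or 14.6, 24.5 and 17.5 CPM in KO libraries, against 10.6, 7.53 and 54.6 CPM in WT libraries. All KO libraries lay above WT replicates 1 and 2 and below WT replicate 3. The log2 fold change of Cxcl2 was -0.42 with an SE of 0.69 (edgeR adjusted p = 0.821), and 1.01 (SE 0.36, edgeR adjusted p = 0.175) without WT replicate 3. Cxcl16 (chr11:70454389-70459984, minus strand) encodes a ligand of CXCR6 that is made as a membrane protein and shed. It had 100, 352 and 248 reads in KO libraries, against 89, 22 and 394 in WT libraries, or 9.74, 28.2 and 12.9 CPM in KO libraries, against 11.9, 15.1 and 37.3 CPM in WT libraries. These groups overlapped as well. For Cxcl16 the log2 fold change was -0.37 with an SE of 0.53 (edgeR adjusted p = 0.793), and 0.37 (SE 0.48, edgeR adjusted p = 0.738) without WT replicate 3. The GENCODE span of Zmynd15 overlaps Cxcl16 by 552 bases on the opposite strand, and Zmynd15 had 51, 104 and 66 reads in KO libraries, against 28, 2 and 105 in WT libraries.

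Ccl1 and Ccl20 bind receptors found on Treg cells and were at low levels. Ccl1 (chr11:82176666-82179812, minus strand), the ligand of CCR8, had 37, 63 and 105 reads in KO libraries, against 41, 10 and 138 in WT libraries. That was 3.60, 5.04 and 5.48 CPM in KO libraries, against 5.48, 6.84 and 13.1 CPM in WT libraries. The groups did not overlap, but the highest KO and the lowest WT library were equal to 3 digits. The log2 fold change of Ccl1 was -0.86 with an SE of 0.47 (edgeR adjusted p = 0.425), and -0.35 (SE 0.49, edgeR adjusted p = 0.753) without WT replicate 3. Ccl20 (chr1:83116766-83119167, plus strand), the ligand of CCR6, had 4, 10 and 3 reads in KO libraries, against 5, 1 and 14 in WT libraries, and did not pass the filter.

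Taking the 7 tested ligands as a list, 2 had groups that did not overlap, Cxcl10 and Ccl1, both lower in KO. No overlap between the groups was seen for 22.0% of all tested genes, and for 11.5% with KO lower. The log2 fold change was negative for 7 of 7 ligands (median -1.54), and for 54.2% of all tested genes (median -0.04). Without WT replicate 3, 3 of the 7 were negative and 4 positive, with a median of 0.13.

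Per transcript length, the place of Cxcl10 among the ligands differed between the groups. In KO, Ccl5 averaged 259 ± 72.1 TPM (reads per transcript length, scaled to the library), Ccl4 47.9 ± 12.2 TPM, Cxcl2 30.1 ± 8.36 TPM and Ccl3 20.7 ± 3.66 TPM (SD, n = 3 libraries). Lower in that order came Ccl1 at 16.1 ± 3.39 TPM, Cxcl10 at 13.1 ± 3.30 TPM, Cxcl16 at 12.0 ± 7.06 TPM, Xcl1 at 1.00 ± 0.695 TPM, Ccl20 at 0.968 ± 0.710 TPM and Cxcl9 at 0.204 ± 0.200 TPM. Neighbours in that order lay within their summed SDs, except Ccl5 above Ccl4 and Cxcl16 above Xcl1. In WT, Ccl5 averaged 519 ± 414 TPM, Ccl4 258 ± 376 TPM, Cxcl10 111 ± 68.4 TPM and Ccl3 92.8 ± 137 TPM, and these neighbours lay within their spread. Cxcl10 ranked 5, 7 and 6 among the 10 in KO libraries, against 2, 2 and 5 in WT libraries. The level of Ccl5 over that of Cxcl10 was 17.3, 20.8 and 21.3 in KO libraries, against 2.37, 1.83 and 19.2 in WT libraries. By that ratio WT replicate 3, with the highest Ccl5 and the lowest WT level of Cxcl10, lay with the KO libraries.

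Pattern over the 6 libraries was compared for Cxcl10, Ccl4 and Ccl5 by Pearson r of log2 CPM, among 8861 genes with a mean of at least 10 CPM. Closest to Cxcl10 were Parp9, Eml3 and Trib2 (r 0.997, 0.994 and 0.994). Parp9 is an interferon-inducible member of the ADP-ribosyltransferase family. It was at 48.9, 53.1 and 42.1 CPM in KO libraries, against 122, 161 and 96.9 CPM in WT libraries. Eml3 was at 105, 109 and 103 CPM in KO libraries, against 135, 142 and 124 CPM in WT libraries. Trib2 was at 80.5, 83.6 and 78.6 CPM in KO libraries, against 177, 208 and 139 CPM in WT libraries. Closest to Ccl4 were Plbd1, Prf1 and Emr1 (r 0.996, 0.994 and 0.994), and closest to Ccl5 were Nuak2, Plekha1 and Cd244 (r 0.995, 0.994 and 0.994). Prf1 encodes perforin, the pore-forming protein of cytotoxic lymphocytes, Emr1 the macrophage surface protein F4/80, and Cd244 a receptor of natural killer cells. Prf1 was at 2.43, 4.32 and 2.51 CPM in KO libraries, against 1.47, 6.84 and 125 CPM in WT libraries. As for Ccl4, WT replicate 3 was the single high library. Plbd1, Nuak2 and Plekha1 were highest in WT replicate 3 too, at 279, 59.5 and 32.3 CPM. Between ligands, r was 0.980 for Ccl3 with Ccl4 and 0.969 for Ccl4 with Ccl5, against 0.141 for Cxcl10 with Ccl3 and 0.263 for Cxcl10 with Ccl4. These values describe 6 libraries, in which the genes share depth and cell makeup.

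Of the 9 receptor genes for these ligands, 2 rose in KO and 0 fell, where 0.755% of all tested genes were called higher and 0.983% lower. Cxcr6, whose product binds Cxcl16, was at 292, 244 and 327 CPM in KO libraries, against 71.5, 130.0 and 75.0 CPM in WT libraries. Ccr8, whose product binds Ccl1, was at 474, 291 and 521 CPM in KO libraries, against 110.3, 155 and 95.0 CPM in WT libraries. Every KO library lay above every WT library for both, with log2 fold changes of 1.67 (SE 0.24) for Cxcr6 and 1.85 (SE 0.26) for Ccr8 and edgeR adjusted p = 0.0213 and 0.0196. The call of Cxcr6 was lost without 1 of KO replicates 1 and 3 and WT replicate 1 (edgeR adjusted p = 0.123, 0.142 and 0.0617). The call of Ccr8 was lost without any 1 of these (edgeR adjusted p = 0.116, 0.126 and 0.0760) and without WT replicate 2 (0.0526). Cxcr3, the receptor gene for Cxcl10 and Cxcl9, was at 192, 278 and 199 CPM in KO libraries, against 377, 273 and 179 CPM in WT libraries. Its groups overlapped, and its log2 fold change of -0.31 with an SE of 0.27 was not called (edgeR adjusted p = 0.631). Ccr6 (log2 fold change -0.32), Ccr1 (-0.71), Ccr3 (-0.88), Cxcr2 (-0.15) and Xcr1 (-0.16) were not called either.

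Among 11 genes of interferon signalling, a route that can induce Cxcl10, 3 fell in KO and 0 rose by edgeR. Over all tested genes edgeR called 0.983% lower. DESeq2 called 5 of the 11 lower, and 496 of all 12720 tested genes. limma-voom called 4 of the 11 lower, and 176 of all 12720. Of the 11, 9 had a negative log2 fold change, as did 54.2% of all tested genes, and the median was -0.61. The list was chosen with earlier results of these data known. Stat2, a transcription factor of type I interferon signalling, fell by 1.28 (SE 0.16) and Irf7, a transcription factor of that response, fell by 1.96 (SE 0.34) on the log2 scale, with edgeR adjusted p = 0.0131 and 0.0449. Stat2 and Irf7 kept their calls without KO replicate 2 and without WT replicate 3, and lost them without any 1 of the other 4 libraries (edgeR adjusted p from 0.0520 for Stat2 without WT replicate 1 to 0.191 for Irf7 without KO replicate 3). Irf7 was also not called without the filter on low counts (edgeR adjusted p = 0.0574). Ifng, chosen after its values were seen, was at 5.16, 8.24 and 3.71 CPM in KO libraries, against 2.81, 8.21 and 13.5 CPM in WT libraries, and its groups overlapped.

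Of 5 genes of proteases that cut chemokines, Dpp4 fell in KO and the other 4 were not called. Over all tested genes 0.983% were called lower. Dpp4 encodes CD26, a surface peptidase that trims Cxcl10 and other chemokines. It was at 15.3, 19.4 and 11.2 CPM in KO libraries, against 64.5, 43.1 and 39.1 CPM in WT libraries, with no overlap. The log2 fold change of Dpp4 was -1.68 with an SE of 0.29 (edgeR adjusted p = 0.0330), and among the fits without 1 library it was called in that without WT replicate 3 alone. Of 13 NF-kB and T cell activation genes, Nfkb1, which encodes an NF-kB subunit, rose by 1.12 (SE 0.19, edgeR adjusted p = 0.0348) and 0 fell. The share called higher over all tested genes was 0.755%. Scaled to pan-T genes, Nfkb1 was not called (log2 fold change 0.80, edgeR adjusted p = 0.225), nor without any 1 of KO replicates 1 and 3 and WT replicates 1 and 2. Of 7 tested cytotoxic genes, Gzmb, the gene of granzyme B, fell by 1.56 (SE 0.16, edgeR adjusted p = 0.00764) and 0 rose. Again 0.983% of all tested genes were called lower. Gzmb lost its call without KO replicate 1 (edgeR adjusted p = 0.0717).

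**Figure D4:**
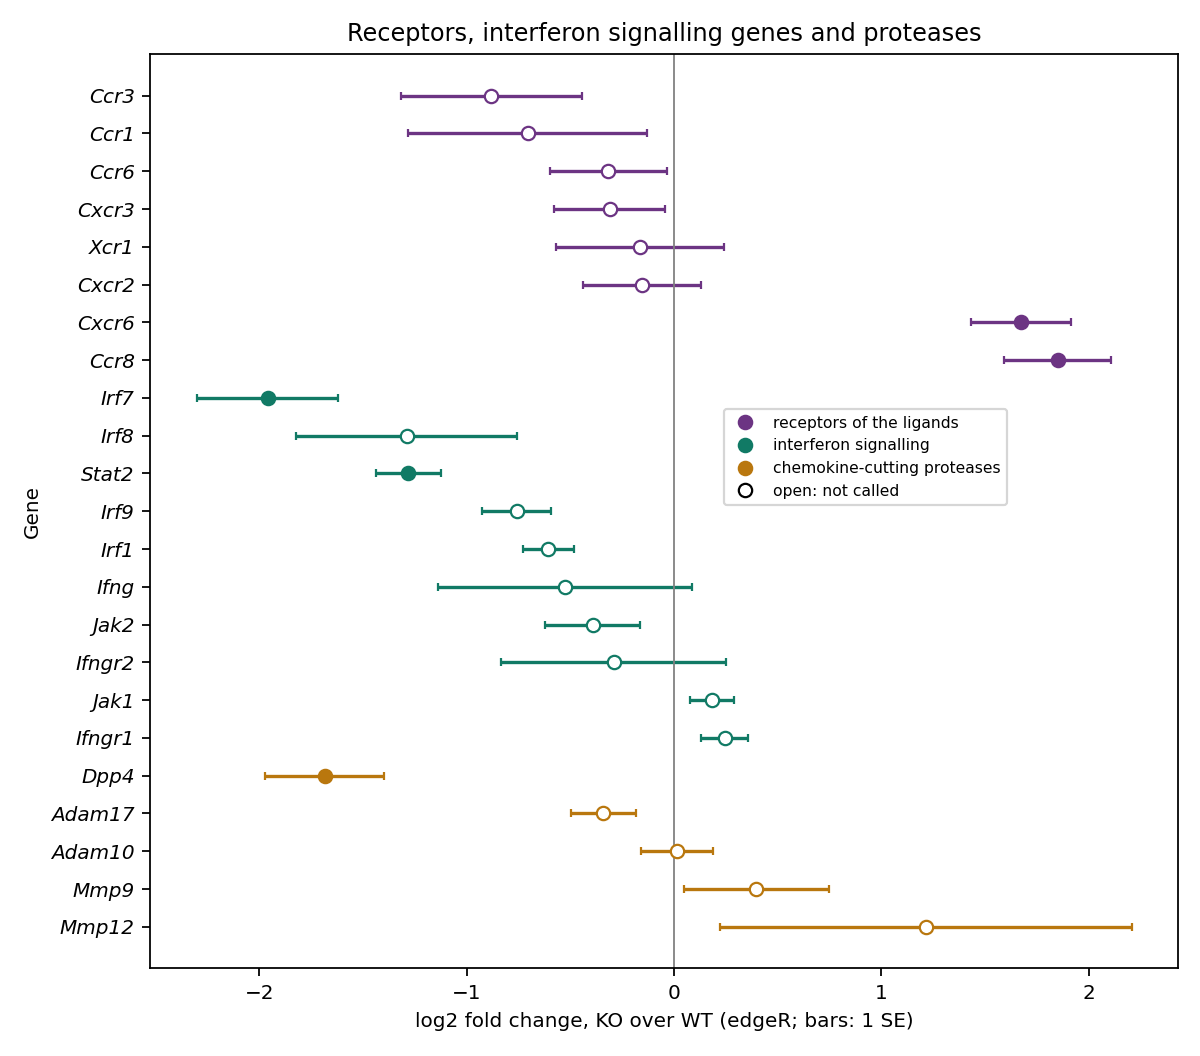
log2 fold change of KO over WT, with bars of 1 SE, for the receptors of the ligands (purple), genes of interferon signalling (green) and chemokine-cutting proteases (ochre), where filled points were called by edgeR and open points were not. The filled points of Ccr8 (1.85) and Cxcr6 (1.67) lie above 0, and those of Irf7, Dpp4 and Stat2 lie at -1.28 or below.

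Of the remaining 28 chemokine ligand genes in the table, 16 passed the filter and 0 were called by edgeR. Of these, 2 had an unadjusted p under 0.05, as did 2018 of all 12720 tested genes. DESeq2 called 1 higher (Ccl8) and 1 lower (Cxcl17), against 367 higher and 496 lower over all genes. limma-voom called 1 lower (Cxcl17), against 176 lower over all genes. Of the 16, 10 had a negative and 6 a positive log2 fold change (median -0.53), where 54.2% of all tested genes were negative. The most abundant were Cxcl15, a chemokine of lung epithelium, and Ccl6, a chemokine of myeloid cells. Cxcl15 was at 30.4, 56.2 and 4.70 CPM in KO libraries, against 56.0, 26.0 and 48.1 CPM in WT libraries. The lung epithelial markers took 1.67%, 2.03% and 0.250% of counts in KO libraries, against 7.89%, 1.76% and 2.25% in WT libraries. The part of lung epithelium in the Cxcl15 values was not tested. Ccl6 was at 16.8, 23.8 and 20.4 CPM in KO libraries, against 3.61, 12.3 and 103 CPM in WT libraries, with WT replicate 3 again the highest. Of 4 atypical chemokine receptors, which bind chemokines without guiding migration, Ackr3 alone passed the filter, and its log2 fold change of -1.32 with an SE of 1.37 was not called (edgeR adjusted p = 0.695).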

How the data were processed

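The authors deposited a table of raw counts of reads for RefSeq transcripts, going by its header and values, along with each transcript's length. The submitters' processing notes name bcl2fastq, mm10, Bowtie2 2.2.6 and TopHat2 2.2.1. How reads were counted, and whether strand was used, is not stated in the labels. Of 31682 rows, 0 lacked a gene name, 0 columns of libraries were unused, and 1 row per symbol was kept, that of the highest total.

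Low counts were removed by filterByExpr (at least 10 reads, total of 15). edgeR 4.0.16 in R 4.3.3 then compared KO with WT (TMM factors, robust quasi-likelihood fit), with Benjamini-Hochberg adjustment over 12720 genes and calls under 0.05. An SE is the size of the log2 fold change over the root of its F statistic. CPM use TMM factors and TPM divide counts by length, both computed here. The fit was tested on simulated data, where more of its calls were false than the cut-off allows and many changes put in were missed. No 2 libraries of a group agreed within sampling noise (chi-square per degree of freedom at least 16.0).

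The ligands and all lists were chosen with earlier results of these data known. By rule, the text names the 10 ligands, their receptors, up to 4 called genes of each other list (or its 2 most abundant where 0 were called), and the 3 genes closest in pattern to Cxcl10, Ccl4 and Ccl5. Some genes that this rule names are included in the counts and not reported here. Alternatives were other scalings and filters, DESeq2 1.42.0, limma 3.58.1, marker covariates, a replicate block and leaving out each library.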

Additional observations from a re-analysis of the deposited data

How the results depend on the processing

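Cxcl10 had a negative log2 fold change in 18 of 18 alternatives (-3.61 to -2.96) and was called in 15. The number of ligands called was 1, which became 4 when the macrophage share was a covariate, 0 when the lung epithelial share was, and 0 to 1 when 1 library was left out (0 without KO replicate 1 or KO replicate 3). Over all genes 221 were called, which became 863 by DESeq2, 714 and 0 with these 2 covariates, and 4, 124 and 7 without KO replicates 1, 2 and 3 and 33, 22 and 518 without WT replicates 1, 2 and 3. When 1 library was left out, the log2 fold change ran from -3.40 to 0.56 for Ccl3, from -3.63 to 0.13 for Ccl4, from -0.93 to 0.37 for Cxcl16 and from -0.82 to 1.01 for Cxcl2, each highest value being that without WT replicate 3. The causes were not tested. Scaling to pan-T genes put the median of all genes at -0.32, in place of -0.04, on the log2 scale. At the depth of WT replicate 2, a ligand under 2.05 CPM could have 0 reads.

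Deviations of same-numbered KO and WT libraries had r of 0.092, -0.15 and -0.043. For KO and WT libraries of different number, r ran from -0.14 to 0.19. Same-numbered libraries were thus not more alike than others by this measure. With so few libraries, such values cannot settle whether equal numbers mark a pair. With the replicate number as a block, 123 genes were called (32 higher, 91 lower), Cxcl10 was called (-3.30), Cxcl2 was at 0.069, and the receptor genes Cxcr6 and Ccr8 were not called (edgeR adjusted p = 0.0508 and 0.0908). DESeq2 gave no adjusted p for Ccl3 and Ccl4.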

Other observations

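Of the 16 tested chemokine ligand genes outside the named set, 2 had an unadjusted p under 0.05, as did 2018 of all 12720 tested genes. Ccl8 and Cxcl17 were those 2 and are named here because of those values. Ccl8, a ligand made by macrophages, had 45, 47 and 66 reads in KO libraries, against 1, 0 and 5 in WT libraries. Each KO library lay above each WT library. The macrophage and monocyte markers took 0.323% to 0.347% of counts in KO, against 0.0709%, 0.125% and 0.839% in WT replicates 1, 2 and 3. Ccl8 was not called by edgeR (log2 fold change 3.75 with an SE of 0.82, adjusted p = 0.0671) and was called by DESeq2. Cxcl17, a chemokine of mucosal epithelium, was at 3.02, 4.80 and 1.10 CPM in KO libraries, against 26.7, 6.84 and 21.4 CPM in WT libraries, and was called by DESeq2 and limma-voom but not by edgeR (log2 fold change -2.67 with an SE of 0.65, edgeR adjusted p = 0.0923). Lung epithelial markers took 1.67%, 2.03% and 0.250% of counts in KO libraries, against 7.89%, 1.76% and 2.25% in WT libraries. Scgb1a1 made up most of that share. The part of other cells in these values was not tested.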
